A study of Homo sapiens with 3 samples.

Results

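The genes of the proteasome and its activators were examined on the 3 arrays of irinotecan-sensitive and irinotecan-resistant LoVo cells. Members were all genes whose symbol in the array annotation is PSMA, PSMB, PSMC, PSMD, PSME or PSMF followed by a number, pseudogenes left out. A probe set had to name 1 gene, and the probe set with the highest mean represented a gene that had several. Of 44 protein-coding RefSeq genes with such a symbol, 41 were measured, among 18417 genes in all. PSMC5, PSMD7 and PSMD13 had no probe set naming them alone and are not analysed here. The 5 immunoproteasome genes (PSMB8, PSMB9, PSMB10, PSME1 and PSME2) were set against the 36 other proteasome genes.

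LoVo is an established human colorectal cancer cell line. LoVo-R8 is the irinotecan-resistant line that was derived from it by growth in irinotecan, a topoisomerase I poison, raised stepwise to 8 µM. The arrays hold parental LoVo cells, LoVo-R8 cells cultured without irinotecan and LoVo-R8 cells cultured with 8 µM irinotecan for 24 h before RNA was taken, all grown in RPMI medium with serum. The sources used here do not say whether the parental culture also received irinotecan before its RNA was taken. Each condition has 1 array of 1 line, so no test between conditions was possible, and every difference below is a difference between 3 single cultures with no replicate check. Values are log2 levels after robust multichip average (RMA) normalization, and a difference of 1 on this scale is 2-fold. Levels of different genes come from different probes and were not compared with each other.

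The proteasome is the protease that degrades ubiquitin-tagged proteins in the cytosol and nucleus. Its barrel, the 20S core, is a stack of outer alpha rings, which gate the entry, and inner beta rings, which hold the peptidase sites. The 19S cap, built of ATPases that unfold the substrate and non-ATPases that bind and trim ubiquitin, feeds the core. Interferon-gamma exchanges the constitutive catalytic subunits PSMB5, PSMB6 and PSMB7 for PSMB8, PSMB9 and PSMB10, and induces PSME1 and PSME2, which form the PA28 cap. The resulting immunoproteasome is known for making peptides for MHC class I, and it is abundant in leukocytes and low in most unstimulated epithelia.

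Of the 41 genes, 39 were at or above the median of the array on all 3 arrays and 32 were at or above the third quartile. The exceptions were PSMA8, the testis form of an alpha subunit, at 3.73, 3.79 and 3.79 in parental LoVo, LoVo-R8 without and LoVo-R8 with irinotecan, and PSMB11, the beta subunit of the thymus cortex, at 5.40, 5.22 and 5.21. Both genes were dim everywhere, so their differences say little. The order of arrays in all lists of 3 values that follow is the same: parental, without irinotecan, with irinotecan. The plot of levels by array gives every member.

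**Figure D1:**
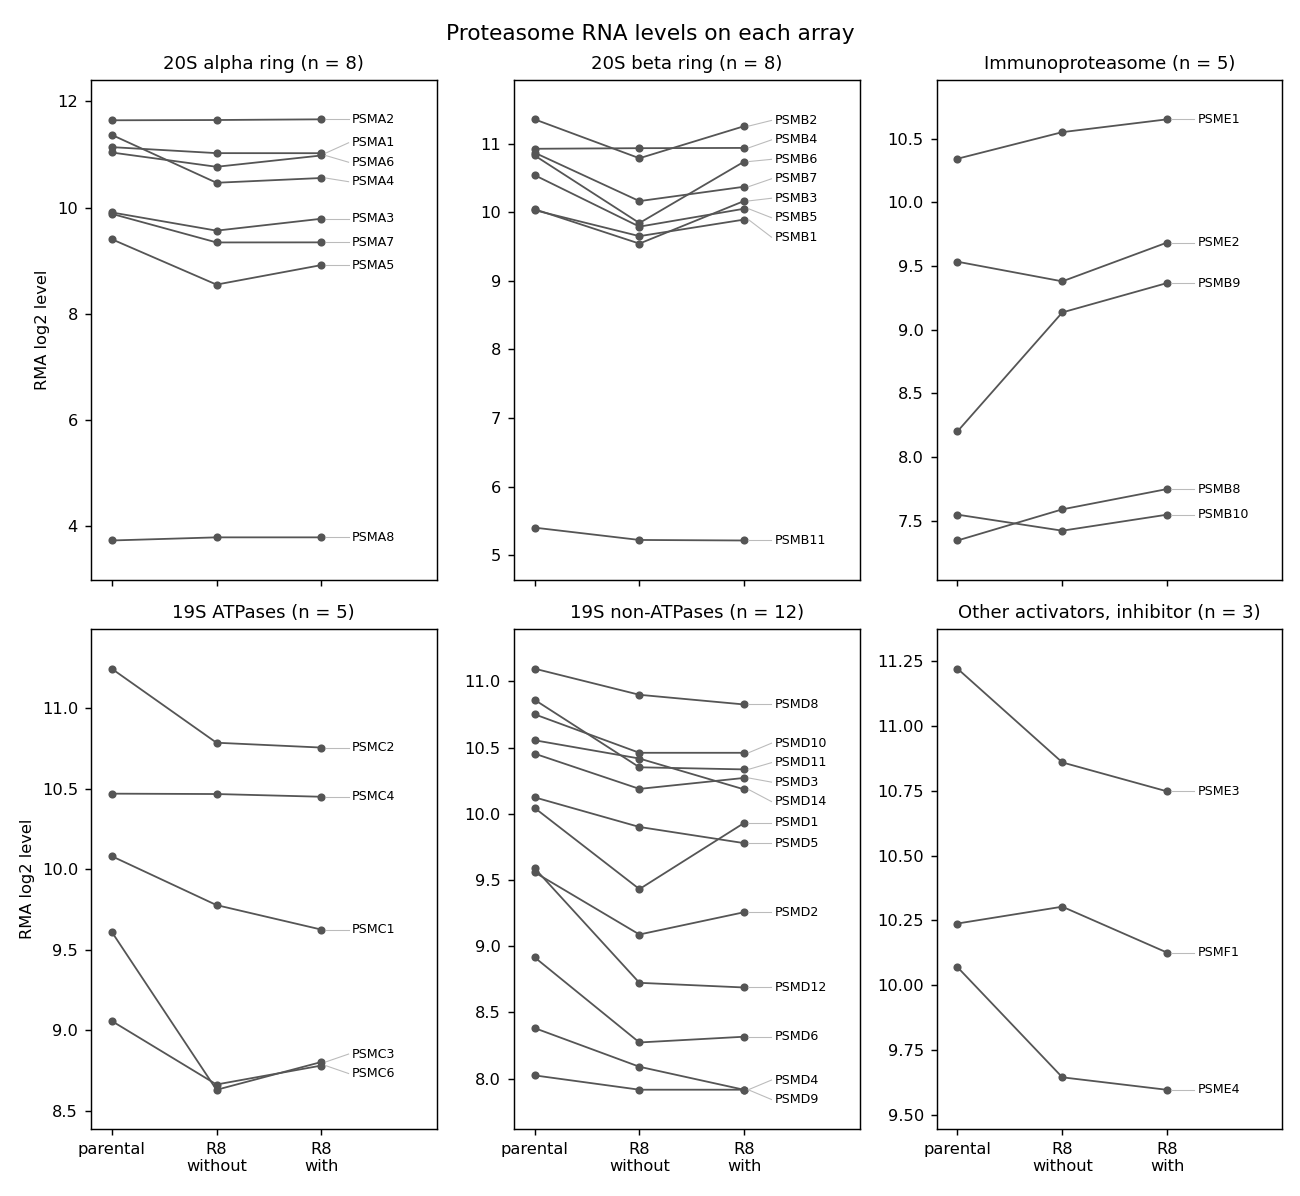
RMA log2 level (y axis, own range in each panel) of the 41 proteasome genes on the 3 arrays (x axis: parental LoVo, LoVo-R8 without irinotecan, LoVo-R8 with irinotecan), 1 point for each gene and array and 1 panel for each role. PSMB9 lies higher on both LoVo-R8 arrays than in parental LoVo, while most lines of the 20S and 19S panels lie lower in LoVo-R8.

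Most proteasome genes were lower in LoVo-R8 than in parental LoVo. Among the immunoproteasome genes 2 of 5 (40%) were lower without irinotecan, a share near the 38.5% of all genes, and 0 of 5 with it. Of the 36 other proteasome genes, 32 were below parental LoVo without irinotecan and 32 with it, whereas 38.5% and 44.7% of all genes were below it. Their median difference was -0.37 without and -0.28 with irinotecan, beside medians of 0.00 over all genes in both comparisons. Of the 5 immunoproteasome genes, 3 were above parental LoVo without irinotecan and 4 with it, when 48.9% and 40.9% of all genes were above. The immunoproteasome median was 0.21 without and 0.31 with irinotecan, which put it above the median of the other proteasome genes by 0.58 and 0.59. None of the 36 genes (0 of 36) reached the immunoproteasome median in either comparison. Part of the group overlapped at its lower end: 8 of the 36 without and 4 with irinotecan were above the lowest immunoproteasome gene.

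Bright genes as a whole were also shifted, to a smaller extent. The 4595 genes at or above the third quartile on all 3 arrays had medians of -0.08 without and -0.04 with irinotecan, and 59.3% and 54.9% of them were below parental LoVo. The shift of the 36 proteasome genes was larger than this, as the cumulative curves show. An array of whole-culture RNA cannot tell fewer cells that express a gene from less RNA in each cell.

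**Figure D2:**
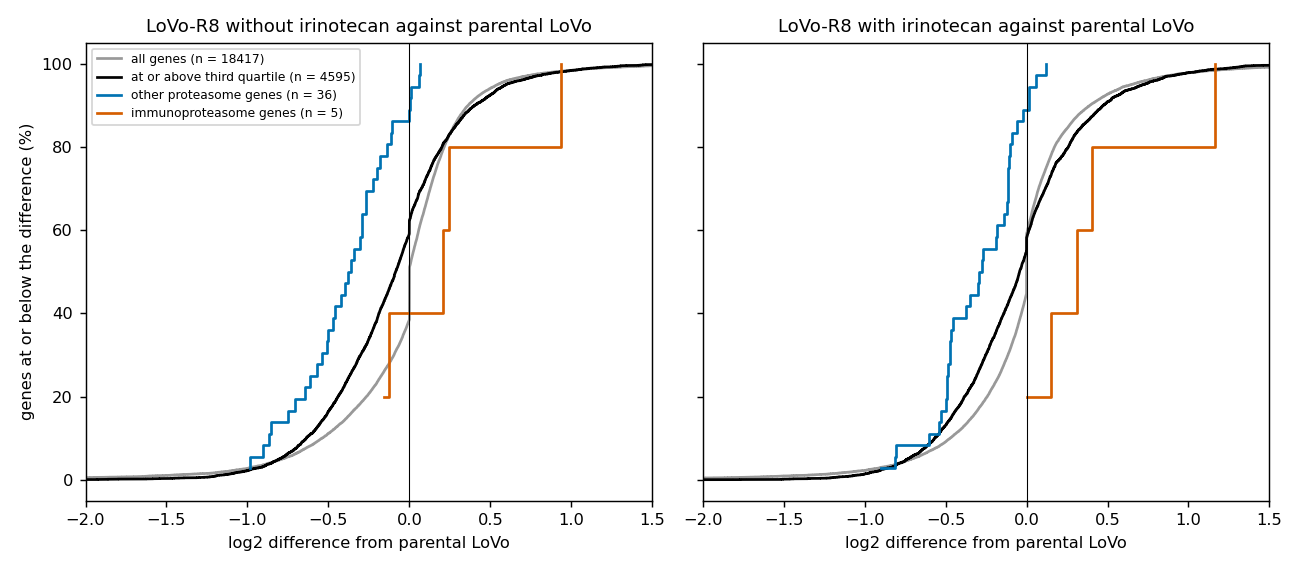
Percent of genes (y axis) at or below a given log2 difference from parental LoVo (x axis), for LoVo-R8 without irinotecan (left) and with irinotecan (right); lines stand for all 18417 genes, the 4595 genes at or above the third quartile on all arrays, the 36 other proteasome genes and the 5 immunoproteasome genes. The curve of the 36 genes starts right of both reference curves, since none (0 of 36) was 2-fold lower. It runs left of them in the middle of the range, with medians of -0.37 and -0.28. The 5 immunoproteasome genes end at PSMB9, at 0.93 and 1.16.

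Few members differed by much. At the 2-fold threshold no member was higher or lower in LoVo-R8 without irinotecan, where 1.64% of all genes were higher and 2.78% lower. With irinotecan PSMB9 alone was at least 2-fold higher and no member was 2-fold lower, beside 2.25% and 2.3% of all genes. At 1.5-fold, 9 of the 41 members were lower without irinotecan (PSMA4, PSMA5, PSMB5, PSMB6, PSMB7, PSMC3, PSMD1, PSMD6 and PSMD12), when 8.84% of all genes were. With irinotecan 4 were lower (PSMA4, PSMC3, PSMD6 and PSMD12), 9.76% against 7.19%, a share near the background. PSMB9 was the member at least 1.5-fold higher in both comparisons, where 4.37% and 5.79% of all genes were. The proteasome pattern in LoVo-R8 was thus many small differences in one direction with few large ones.

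PSMB9, the immunoproteasome subunit that replaces PSMB6, had the largest positive difference among the members. Its level was 8.20 in parental LoVo, 9.14 in LoVo-R8 without and 9.37 with irinotecan. The differences from parental LoVo of 0.93 and 1.16 ranked 344 and 299 from the top among 18417 genes, and correspond to 1.91-fold and 2.24-fold. The study itself lists PSMB9 and PSME2 as up among cell cycle arrest genes on these same arrays, so the direction of these genes is not independent evidence. Its fold changes match those found here with irinotecan (2.24 and 1.11), although a figure legend of the study names the data without the drug as those used. Without irinotecan PSME2 was lower than in parental LoVo here (0.90-fold). PSMB8, which replaces PSMB5 and carries chymotrypsin-like activity, was at 7.35, 7.59 and 7.75. Its differences of 0.24 and 0.40 had the sign of those of PSMB9 and were smaller. PSMB10, which replaces PSMB7, was at 7.55, 7.42 and 7.55, below parental LoVo without irinotecan and equal to it with the drug. The catalytic immunoproteasome genes therefore did not move as a block.

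The PA28 genes differed from each other as well. PSME1, the alpha subunit of the cap, was at 10.34, 10.55 and 10.65, higher by 0.21 and 0.31. PSME2, its beta subunit, was at 9.53, 9.38 and 9.68, so it lay below parental LoVo without irinotecan (-0.15) and above it with the drug (0.15). For PSMB8 and PSMB9 the array carries 3 probe sets each, and the values of the 3 were identical, so they count as 1 measurement.

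Each immunoproteasome catalytic subunit takes the place of 1 constitutive subunit, so the log2 differences were compared within each replacement pair. The constitutive genes were lower in LoVo-R8. PSMB6, the caspase-like subunit, was at 10.83, 9.84 and 10.74, PSMB5, the chymotrypsin-like subunit, at 10.54, 9.79 and 10.05, and PSMB7, the trypsin-like subunit, at 10.87, 10.16 and 10.37. PSMB6 was almost 2-fold lower without irinotecan (-0.99) and close to parental LoVo with it (-0.09), whereas PSMB5 (-0.75 and -0.49) and PSMB7 (-0.71 and -0.50) were lower in both cultures. The balance within a pair, which is the difference of the immunoproteasome gene minus that of its constitutive partner, was 1.92 for PSMB9 and PSMB6 without irinotecan, a 3.78-fold change of the ratio. It was 1.25 (2.38-fold) with irinotecan. For PSMB8 and PSMB5 the balance was 1.00 and 0.89 (1.99-fold and 1.86-fold), and for PSMB10 and PSMB7 it was 0.58 and 0.50 (1.41-fold with irinotecan). All 3 pairs were thus tilted to the immunoproteasome gene in both LoVo-R8 cultures. In the pair with PSMB10 only the lower constitutive gene contributed. In the pair with PSMB8 the lower PSMB5 (-0.75 and -0.49) contributed more than the higher PSMB8 (0.24 and 0.40). In the pair with PSMB9 the shares were about equal without irinotecan (PSMB6 at -0.99, PSMB9 at 0.93). With irinotecan PSMB9 (1.16) contributed most of it.

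**Figure D3:**
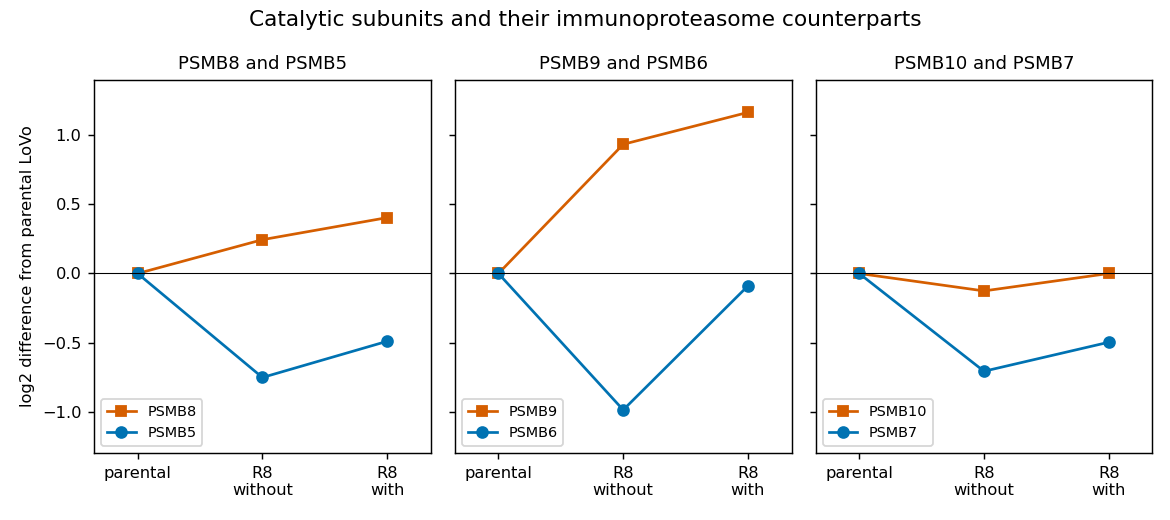
Log2 difference from parental LoVo (y axis, parental set to 0) for each catalytic immunoproteasome gene and the constitutive gene it replaces, 1 panel for each pair, with the 3 arrays on the x axis and 1 point for each gene and array. In each panel the immunoproteasome gene lies above its partner on both LoVo-R8 arrays, by 1.92 and 1.25 for PSMB9 over PSMB6.

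Promoter sequences were looked up for these genes because the immunoproteasome genes are textbook targets of interferon signalling. RefSeq windows on GRCh38.p14, from 250 bases before to 50 after a start site, were found for 36 of the 41 members, and both strands were searched. The core of the interferon-stimulated response element, GAAA and GAAA with 2 bases of any kind between them, was present in 4 of the 5 immunoproteasome genes, in 2 of 31 other proteasome genes and in 4.38% of all 27305 genes in the promoter table. The 4 immunoproteasome matches are shown with the core in capitals, as GAAA or, where it lies on the opposite strand, as its complement; the base is counted from the start site.
PSMB8, chr6:32844032-32844061, - strand, motif from base -4: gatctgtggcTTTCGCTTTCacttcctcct
PSMB10, chr16:67936852-67936881, - strand, motif from base -21: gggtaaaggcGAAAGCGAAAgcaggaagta
PSME1, chr14:24136189-24136218, + strand, motif from base 5: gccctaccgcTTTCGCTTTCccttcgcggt
PSME2, chr14:24146619-24146648, - strand, motif from base -28: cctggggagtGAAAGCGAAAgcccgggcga
These matches lie within 30 bases of the start site, on either side of it. The matches in the other proteasome genes, shown for comparison, lie farther upstream.
PSMA4, chr15:78540155-78540184, + strand, motif from base -240: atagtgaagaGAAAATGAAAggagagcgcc
PSMB4, chr1:151399495-151399524, + strand, motif from base -68: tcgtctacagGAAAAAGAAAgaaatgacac
PSMA4 was lower in LoVo-R8 (-0.90 and -0.81) and PSMB4 was level (0.01 and 0.01). Among the 4 immunoproteasome genes that hold the core, PSMB8 (0.24 and 0.40) and PSME1 (0.21 and 0.31) were higher in both LoVo-R8 cultures. PSMB10 (-0.13 and 0.00) and PSME2 (-0.15 and 0.15) lay closer to parental LoVo. Whether the core bears on these levels was not tested.

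PSMB9 was the immunoproteasome gene without this core in its window. It is shown with the 250 bases upstream of its start site. Capitals mark the antioxidant response element core, TGACNNNGC, which reads here on the opposite strand.
PSMB9, chr6:32853942-32854191, + strand: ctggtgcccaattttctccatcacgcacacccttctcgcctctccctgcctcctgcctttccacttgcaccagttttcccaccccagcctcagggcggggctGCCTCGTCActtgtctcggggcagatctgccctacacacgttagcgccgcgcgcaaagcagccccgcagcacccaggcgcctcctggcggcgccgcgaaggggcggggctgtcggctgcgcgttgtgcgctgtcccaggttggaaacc
PSMB9 and TAP1, which encodes a chain of the peptide transporter of the endoplasmic reticulum, are transcribed away from each other from start sites 488 bases apart. The TAP1 window holds the interferon element core, as overlapping copies, of which the one nearer the start site is in capitals.
TAP1, chr6:32853813-32853842, - strand, motif from base -128: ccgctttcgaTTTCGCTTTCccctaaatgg
TAP1 was at 8.80, 9.26 and 9.27, higher by 0.46 and 0.47. A second motif, the gamma-activated site TTCNNNGAA, which is its own complement, was in 1 of the 5 immunoproteasome genes (PSMB8), in 7 of the 31 others and in 9.38% of all genes. TGACNNNGC, the antioxidant response element core, was in 3 of the 5 (PSMB9, PSME1 and PSME2), in 9 of the 31 and in 16.1% of all genes. A match is a run of letters and not a measured binding site.

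PSMB8 and PSMB9 lie in the MHC class II region, and their measured neighbours were also higher in LoVo-R8. In RefSeq gene order the 7 genes are HLA-DOB, TAP2, PSMB8, TAP1, PSMB9, HLA-DMB and HLA-DMA. All 7 were above parental LoVo on both LoVo-R8 arrays, also after centring, loess and quantile scaling, beside 48.9% and 40.9% of all genes. HLA-DMA, which helps to load peptides on class II molecules, was at 7.29, 7.95 and 8.40, higher by 0.66 and 1.11. HLA-DOB was higher by 0.33 and 0.56, HLA-DMB, the partner of HLA-DMA, by 0.48 and 0.14, and TAP2, the second transporter chain, by 0.12 and 0.03, which is close to level. Of the 7, PSMB9 and HLA-DMA reached 2-fold, both in the culture with irinotecan.

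In the 20S alpha ring the genes spread from level to almost 2-fold lower. PSMA4 was at 11.37, 10.47 and 10.56 and PSMA5 at 9.41, 8.55 and 8.92, so PSMA4 was lower by about the same amount in both LoVo-R8 cultures (-0.90 and -0.81) and PSMA5 by less with irinotecan (-0.86 and -0.49). PSMA7 was at 9.88, 9.34 and 9.35, at -0.54 in both. PSMA3 (-0.34 and -0.12) and PSMA6 (-0.27 and -0.06) differed less, and PSMA1 (-0.11 and -0.11) and PSMA2 (0.01 and 0.02) least. The 8 alpha genes, PSMA8 among them, had medians of -0.31 and -0.12. Genes whose products stand side by side in the same ring in equal number thus had unlike differences in RNA.

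The constitutive beta genes were lower without irinotecan and closer to parental LoVo with it. Their 8 genes had medians of -0.53 without and -0.12 with irinotecan. PSMB2 was at 11.36, 10.79 and 11.26, and PSMB3, a structural beta subunit, at 10.04, 9.54 and 10.17. PSMB1, also structural, was at 10.03, 9.65 and 9.89. PSMB4 was the level member, at 10.93, 10.93 and 10.94. PSMB6, PSMB2 and PSMB3 were lower by 0.50 or more in the culture without the drug and within 0.12 of parental LoVo in the culture with it.

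All 17 measured 19S genes had lower levels in both LoVo-R8 cultures as deposited, although PSMC4, at 10.47, 10.47 and 10.45, was so close to level that its sign turned with loess and with quantile scaling, which left 16 of 17 below. The medians of the 17 genes, which include the assembly chaperones PSMD5, PSMD9 and PSMD10, were -0.30 without and -0.35 with irinotecan. Among the ATPases, which form the ring that unfolds substrates, PSMC3 was at 9.61, 8.63 and 8.80, lower by nearly 2-fold without irinotecan (-0.98) and at -0.81 with it. PSMC2 (-0.46 and -0.49), PSMC1 (-0.30 and -0.46) and PSMC6 (-0.39 and -0.28) were lower by less. PSMC1 and PSMC6 each have a second probe set, with differences of -0.28 and -0.42 for PSMC1 and of -0.48 and -0.47 for PSMC6, so both sets of each gene had the same sign. The brighter set, used here, may lie at a processed copy of the gene, which was not tested.

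Among the 12 non-ATPases the largest differences were in subunits of the lid and in a base scaffold. PSMD12, a lid subunit, was at 9.59, 8.72 and 8.69, with differences of -0.87 and -0.90. PSMD6, another lid subunit, was at 8.92, 8.27 and 8.32 (-0.64 and -0.60), and PSMD11, a lid subunit that contacts the alpha ring, at 10.86, 10.35 and 10.34 (-0.51 and -0.53). These 3 were lower to the same extent in both LoVo-R8 cultures. PSMD1, the large scaffold of the base, was at 10.04, 9.43 and 9.93, lower without irinotecan (-0.61) and near parental LoVo with it (-0.11). PSMD2, the other large scaffold, had differences of -0.47 and -0.30. The ubiquitin receptor PSMD4 (-0.11 and -0.11) and the deubiquitinase PSMD14 (-0.14 and -0.37) were among the less affected genes without irinotecan. The assembly chaperones PSMD5 (-0.22 and -0.35), PSMD9 (-0.29 and -0.47) and PSMD10 (-0.29 and -0.29) and the lid genes PSMD3 (-0.27 and -0.18) and PSMD8 (-0.20 and -0.27) lay in between.

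The activators that interferon does not induce were on the side of the constitutive genes. PSME3, the nuclear member of the PA28 family, was at 11.22, 10.86 and 10.75 (-0.36 and -0.47). PSME4, the PA200 activator, was at 10.07, 9.64 and 9.60 (-0.43 and -0.47). PSME3 and PSME1 belong to the same family and lay on opposite sides of parental LoVo in both cultures. PSMF1, the inhibitor known as PI31, was at 10.24, 10.30 and 10.13, within 0.11 of parental LoVo.

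**Figure D4:**
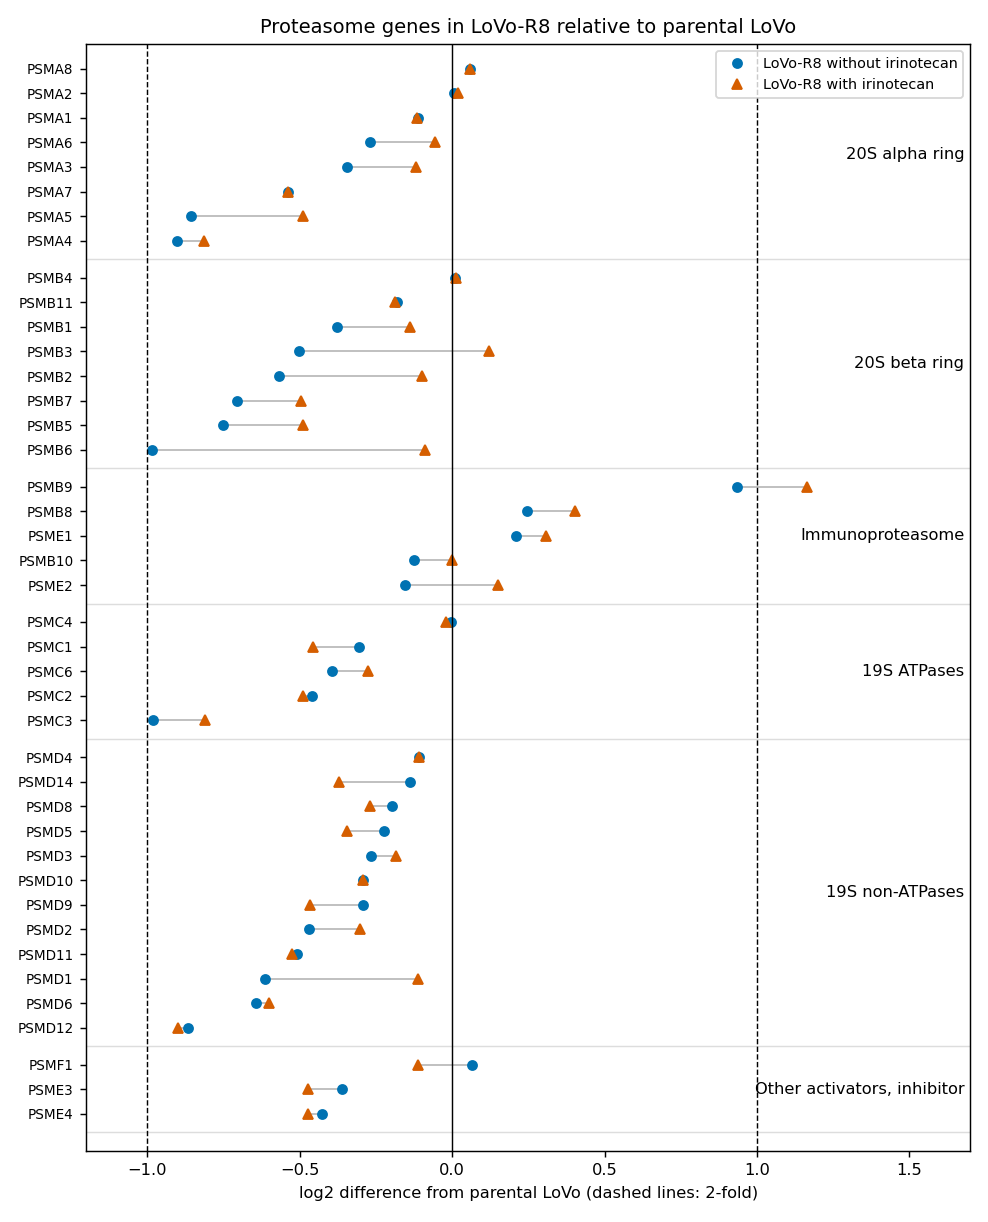
Log2 difference from parental LoVo (x axis) of each of the 41 proteasome genes (y axis, grouped by role), with circles for LoVo-R8 without and triangles for LoVo-R8 with irinotecan, a line joining the 2 values of a gene and dashed lines at 2-fold. PSMB9 alone passes a dashed line, with irinotecan, and the 19S genes lie left of or at 0 on both arrays.

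The LoVo-R8 cultures with and without irinotecan were then compared with each other. They differed by less than 0.53 for 95% of all genes and by less than 0.90 for 99%. No member was 2-fold higher or lower with irinotecan, where 0.527% of all genes were higher and 0.114% lower. PSMB6 (0.90) and PSMB3 (0.62) were at least 1.5-fold higher and no member 1.5-fold lower, beside 2.87% and 1.08% of all genes. PSMB6 ranked 151 from the top of the 18417 genes. PSMD1 (0.50) and PSMB2 (0.47) came next. The negative end was nearer to 0, with PSMD14 at -0.23 and PSMF1 at -0.18.

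The 20S and the 19S genes differed in this comparison. Of the 16 alpha and constitutive beta genes, 13 were higher with irinotecan, 2 lower and 1 equal, with a median of 0.21, when 39.4% of all genes were higher and 48.4% lower. Of the genes at or above the third quartile on all arrays, 57.9% were higher and 38.2% lower, with a median of 0.04. The count ranged from 11 to 16 of 16 over the other scalings, as level genes turned sign, with medians between 0.16 and 0.23. Of the 17 genes of the 19S group, the assembly chaperones PSMD5, PSMD9 and PSMD10 among them, 6 were higher and 9 lower, with a median of -0.02. All 5 immunoproteasome genes were higher with irinotecan under every scaling. As deposited the differences ran from 0.10 (PSME1) to 0.30 (PSME2). After quantile normalization PSME1 was at 0.05 and PSME2 at 0.24. Since PSMB6 was higher by more than PSMB9 (0.23), the balance of that pair was smaller with the drug than without it (-0.67 on the log2 scale). No replicate is at hand to say how much of these differences separate cultures of LoVo-R8 would show.

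**Figure D5:**
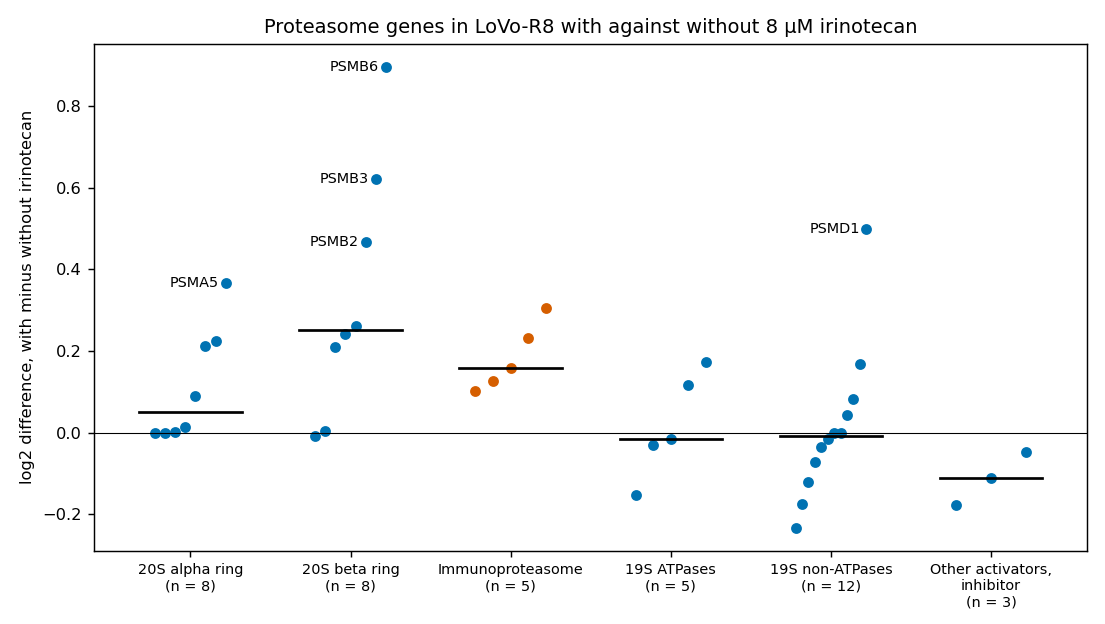
Log2 difference of LoVo-R8 with minus LoVo-R8 without irinotecan (y axis) for each of the 41 proteasome genes, 1 point for each gene, by role (x axis), with a bar at the median of each role. PSMB6, PSMB3 and PSMB2 stand above the other beta genes at 0.90, 0.62 and 0.47, all 5 immunoproteasome genes lie above 0, and the medians of both 19S groups lie near 0.

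Genes that act with the proteasome were described from lists of the pathway. Of 12 measured assembly and associated proteins, 8 were below parental LoVo in each LoVo-R8 culture, beside 38.5% and 44.7% of all genes. Their medians were -0.20 and -0.08. None (0 of 12) was past 1.5-fold, where 8.84% and 7.19% of all genes were lower and 4.37% and 5.79% higher. The largest differences were in PSMG3, an assembly chaperone (-0.51 and -0.35), ECPAS, a proteasome adaptor (-0.42 and -0.49), SEM1, a small 19S subunit (-0.38 and 0.03), and USP14, a deubiquitinase of the cap (-0.34 and -0.30). Of 10 ubiquitin and shuttle genes, 9 were below parental LoVo without irinotecan and 7 with it (medians -0.27 and -0.12), beside the same 38.5% and 44.7%. The polyubiquitin gene UBB was at 12.70, 12.18 and 12.73 and, like PSMB6, was lowest without irinotecan. UFD1, which works with VCP to extract ubiquitinated proteins, was at -0.73 and -0.34. The ubiquitin-activating enzyme gene UBA1 was at -0.45 and -0.17, while SQSTM1, the autophagy receptor, was lowest with irinotecan (-0.20 and -0.44).

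The regulators of proteasome transcription did not move together. NFE2L1, which encodes the factor NRF1 that induces proteasome genes when the proteasome is inhibited, was at 9.65, 9.97 and 9.61. It was thus highest in LoVo-R8 without irinotecan, the culture in which the median difference of the 20S genes was lowest, although 5 of the 16 were not lowest there (PSMA1, PSMA2, PSMA8, PSMB4 and PSMB11). NFE2L2, its relative, was at 10.77, 11.00 and 10.64. VCP, the ATPase that releases NRF1 from the endoplasmic reticulum, was at 11.19, 10.20 and 10.61 and was the member of this list with the largest difference (-0.99 and -0.58). MAFG, a small partner of both factors, was at -0.26 and -0.02. The median of the 6 measured genes was 0.04 and -0.04.

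Genes of the interferon-gamma pathway and of MHC class I presentation were mixed. Of 13 measured interferon-gamma genes, 6 were higher and 6 lower without irinotecan and 4 higher and 9 lower with it. Over all genes 48.9% were higher and 38.5% lower without irinotecan, and 40.9% and 44.7% with it. GBP2, an interferon-induced GTPase, was at 6.56, 7.90 and 8.15, higher by 1.34 and 1.60, and IFNGR1, the receptor chain that binds interferon-gamma, was higher by 0.81 and 0.98. IRF2 was higher by 0.52 and 0.67, while IRF8 was at -0.83 and -0.88 and IRF1, the activator of the PSMB9 and TAP1 promoter, at -0.32 and -0.26. Of the 9 measured class I genes, 3 were higher and 6 lower in each culture, beside the same shares of all genes. TAPBP, which bridges TAP to class I molecules, was at 9.52, 10.27 and 10.58 (0.74 and 1.06), whereas the trimming peptidases ERAP1 (-0.77 and -0.34) and ERAP2 (-0.62 and -0.52), the chaperone CALR (-0.91 and -0.26) and B2M, the class I light chain (-0.09 and -0.42), were lower. NLRC5, the class I transactivator, was at -0.07 and -0.17. The higher genes were therefore single members of the pathway, PSMB9, TAP1, TAPBP, GBP2 and IFNGR1 among them, and not the pathway as a whole.

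Heat shock genes, which encode chaperones, were mostly lower in LoVo-R8. Of 10 measured genes, 8 were below parental LoVo without irinotecan and 7 with it, beside 38.5% and 44.7% of all genes, and 3 and 1 of them were at least 2-fold lower, beside 2.78% and 2.3% of all genes. HSPH1 was at 10.88, 9.05 and 9.97, DNAJB1 at 10.66, 8.80 and 9.60, and HSP90AA1 at 12.09, 10.95 and 11.85. HSPE1, a mitochondrial chaperonin gene, was lower without irinotecan (-0.64) and higher with it (0.35). Like PSMB6, these 4 genes, which were named for their large differences, were lowest in LoVo-R8 without irinotecan. Of all 10 measured heat shock genes, these 4 (40%) were at least 1.5-fold higher with the drug than without it, beside 2.87% of all genes. The median of the 10 was 0.15 in this comparison.

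Markers of cell types were read because leukocytes carry immunoproteasomes. The epithelial genes KRT8 (13.27, 12.73 and 12.77) and EPCAM (12.33, 11.90 and 12.03) were high, and 9 to 10 of the 11 epithelial markers were above the array median on each array. CDH1, CEACAM5 and LGALS4 were at least 2-fold lower in both LoVo-R8 cultures, CDH1 by the largest differences, of -3.06 and -2.26. Of the 11 epithelial markers, 9 were below parental LoVo without irinotecan and 8 with it, beside 38.5% and 44.7% of all genes. Their medians were -0.43 and -0.30. The intestinal factors CDX2 (0.35 and 0.91) and CDX1 (0.25 and 0.17) were the only ones higher. The defining leukocyte marker PTPRC was at 4.12 on every array, below the first quartile. Of 6 leukocyte markers measured, 2 were above the array median on each array, and their mean level was 6.48, 6.82 and 6.91. CD68, a lysosomal glycoprotein gene that is also read as a macrophage marker, was at 9.64, 11.12 and 11.51 and moved with PSMB9. LYZ was at 7.59, 7.55 and 7.99, ITGAM at 5.89, 6.16 and 6.16, and CD14 at 6.08, 6.29 and 6.06. On each array 1 to 2 of 6 fibroblast markers and 0 of 4 endothelial markers were above the array median. The part of other cell types in the PSMB9 values was not tested.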

How the data were processed

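RNA of parental LoVo, LoVo-R8 without irinotecan and LoVo-R8 with irinotecan was hybridized to Affymetrix Human Gene 1.0 ST arrays, 1 array for each condition. The authors deposited log2 levels of 33297 probe sets after RMA (per the submitters' notes, Affymetrix Expression Console 1.1), which equalizes the distribution of the arrays, so differences are relative to the other genes. The detection filter of the study was not repeated here, and the genome build was not given in the sources used here.

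Probe sets were named from the platform annotation: 19460 name 1 gene, 1754 several and 12083 none. Each of 18417 genes took its probe set with the highest mean. With 1 array a condition no test, error or leave-one-out was possible, so the precision is limited by the small number of arrays. Differences of log2 levels were computed for 3 comparisons and counted at 2-fold and, as an alternative, 1.5-fold. Other alternatives were median centring, loess (span 0.3, 3 iterations), repeated quantile normalization, the mean over probe sets, bright members alone, and the 3 catalytic immunoproteasome genes alone. All members could be named. Of each pathway list, up to 4 genes with the largest absolute difference were named, with TAP1, TAP2, B2M, IRF1, NLRC5, NFE2L1 and the 2 measured genes on each side of PSMB8 and PSMB9; another gene of this rule is not reported here. KRT8, EPCAM, CDX1 and PTPRC were named beyond this rule, after their values were seen. The members and lists were chosen with earlier results of these data known. Promoter windows came from RefSeq on GRCh38.p14. The scripts, tested on simulated data, used Python 3.11.15, statsmodels 0.14.6, pandas 2.3.3 and numpy 2.4.6.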

Additional observations from a re-analysis of the deposited data

Results flagged for a closer look

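The members that lay on opposite sides of parental LoVo in the LoVo-R8 cultures, by at least 0.05 on each side, were PSMB3, PSME2 and PSMF1. PSMB3 was at -0.50 without and 0.12 with irinotecan, 0.62 apart. PSME2 was at -0.15 and 0.15, 0.30 apart. PSMF1 was at 0.07 and -0.11, so that its level with irinotecan was lower (-0.18). These differences were not tested, since each culture has 1 array, and both comparisons share the single parental array. Of the 3 values, that of PSMB3 exceeds the 0.53 that 95% of all genes stay below between the LoVo-R8 arrays.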

How the results depend on the processing

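Recomputing the results under the alternative settings gave 183 values in all. Of these, 176 stayed within 0.1 on the log2 scale or within 1.5 times the count, 7 moved and 0 reversed. Some of these values could not move. Median centring leaves a difference between members unchanged, and the mean over probe sets leaves a gene with 1 probe set unchanged. A sign change within 0.1 on the log2 scale was not counted as reversed. The median of the other proteasome genes, with against without irinotecan, was 0.002 as deposited and -0.03 after quantile normalization. The count of members at least 2-fold higher without irinotecan was 0 as deposited and became 1 after loess and 1 after repeated quantile normalization, since PSMB9 was then at 1.01, just past the threshold instead of at 0.93. At 1.5-fold the counts against parental LoVo became 1 higher and 9 lower without irinotecan and 4 lower with it, and 2 members were higher with than without irinotecan. PSME2 without irinotecan was at -0.15 as deposited and at -0.04 after quantile normalization. No paired analysis was possible because each condition has 1 array, and no array could be left out. The medians of the immunoproteasome and of the other proteasome genes kept their sign against parental LoVo under the 3 scalings, from 0.20 to 0.26 and from -0.38 to -0.29 without irinotecan. The median of all genes shifted by at most 0.02 under these scalings. Of probe sets, 26.1% had equal values on at least 2 arrays, bright members such as PSMD4 and PSMD10 among them.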
